A study of Homo sapiens with 5 samples.

Results

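Sites of ERG and p53 near the ends of chromosomes were examined in VCaP cells by chromatin immunoprecipitation followed by sequencing (ChIP-seq), in which DNA bound by a protein is precipitated with an antibody and sequenced, and stretches with an excess of reads are called as peaks. Overlapping peaks (at least 1 bp) of all 4 peak lists were merged into 16244 regions, and a region was counted as subtelomeric when its midpoint lay within 5 Mb of the outermost listed peak of a chromosome end. Chromosomes 17, 19, X and Y were left out, as were the short-arm (p) ends of chromosomes 13, 14, 15, 21 and 22, where repeated sequence fills the arm. The 20 chromosomes used have 35 such ends, written here as chromosome and arm (5p, 13q), and these held 1689 of the 16244 regions. VCaP is an established human prostate cancer line with the TMPRSS2-ERG gene fusion, which drives expression of ERG, and with a mutant p53. All cells were untreated, and 2 samples were precipitated for ERG and 2 for p53 (antibody DO-1). The replicates are described as biological, but no source says that they came from separate cultures. The input chromatin was not used here, and a single cell line whose copy number was not analysed here limits these regions as a model of prostate cancer.

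Human chromosomes end in telomeres, arrays of a short repeat bound by the shelterin complex. The adjoining subtelomeres hold blocks of sequence that are duplicated between chromosome ends, and farther in they pass into single-copy, often gene-rich chromatin. ERG is a transcription factor of the ETS family, which binds DNA with a GGAA core, and the fusion places it under an androgen-responsive promoter in prostate cells, which do not normally express it. Normal p53 binds paired half-sites in its target genes and has been described at subtelomeres, while p53 with a mutated DNA-binding domain has lost most of that sequence recognition. All positions are given in hg19, counted from 1, and without gene names, because no annotation of that build was used here. Distances are measured from the outermost listed peak and not from the telomere itself.

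Near chromosome ends, as over the whole series, nearly all regions had an ERG peak and few had a p53 peak. Peaks of ERG replicate 1 lay in 1498 of the 1689 regions and those of ERG replicate 2 in 1201, against 34 for p53 replicate 1 and 8 for p53 replicate 2. An ERG peak of either replicate was present in 1667 regions (98.7%), beside 99.1% of all regions of the series. A p53 peak was present in 40 (2.37%, beside 2.01%) and peaks of both factors in 18 (1.07%, beside 1.10%). These shares lay near those of the series. A single list accounted for 650 regions (38.5%), beside 42.0% over the series and 43.1% in the rest of the same chromosomes. Of the 650, 462 came from ERG replicate 1 alone (27.4% of the subtelomeric regions, against 31.1% in the rest) and 167 from ERG replicate 2 alone (9.89% against 11.2%). The order of the factors follows the lengths of the deposited lists, which held 14337 and 11237 ERG peaks but 227 and 138 p53 peaks. The study describes longer p53 peak sets than those deposited, so p53 values apply to the deposited lists only, and no list carries read counts, a score or a depth.

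The first question was whether ERG and p53 peaks were denser near chromosome ends than in the rest of the same chromosomes. The end windows covered 175 Mb, 6.61% of the length spanned by peaks. They start at the outermost listed peaks, so 35 end-defining regions, 3 of them with p53, lie inside by construction. ERG replicate 1 had 8.57 peaks per Mb in them and 4.43 in the rest, and ERG replicate 2 had 6.91 and 3.46. Both ERG lists were thus about equally denser near the ends, with ratios of 1.93 and 2.0. p53 replicate 1 had 0.194 peaks per Mb in the end windows against 0.0623 in the rest, a ratio of 3.12 that rests on 34 peaks. In p53 replicate 2, with 8 peaks near the ends, the densities were equal (0.0457 per Mb in each). The mean log2 ratio over the 4 samples was 0.90 and did not pass an exact sign-flip permutation test (two-sided, p = 0.125, the smallest that 4 samples allow, 0.375 after adjustment over 3 tests). When the number expected was set within each chromosome, from the density of its own rest, the observed number exceeded it 1.87 and 1.92 times for ERG and 2.70 times for p53 replicate 1, and was 0.900 times it for p53 replicate 2. Stretches to which reads cannot be aligned, such as the centromeres in the rest, were not subtracted from either length, and their effect was not tested. Gene density and copy number were not taken into account.

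As a share of each list on these chromosomes, the end windows held 12.04% of the ERG replicate 1 peaks (95% Wilson interval 11.5% to 12.6%), 12.4% of the ERG replicate 2 peaks (11.8% to 13.1%), 18.1% of the p53 replicate 1 peaks (13.2% to 24.2%) and 6.61% of the p53 replicate 2 peaks (3.39% to 12.5%). The p53 samples lay on either side of the ERG samples. Mean shares were 12.2% ± 0.253 for ERG and 12.3% ± 8.11 for p53 (SD, n = 2 each), and the difference was smaller than the spread between the p53 replicates (exact permutation test, two-sided, p = 1, smallest possible 0.333). These intervals cover counting error only and treat peaks as independent.

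Over all ends together, ERG density was highest in the outermost Mb and lower farther in, but single ends differed. Regions held by both ERG replicates numbered 290 in the first Mb over all ends (8.29 per Mb, including 23 that define an end), 223 in the second (6.37 per Mb), and 176, 175 and 168 in the next 3. From 5 to 10 Mb the counts per Mb step ranged from 99 to 142, or 2.83 to 4.06 per Mb. Each step inside the window thus held more of these regions than any of the steps from 5 to 10 Mb. Against the band from 5 to 10 Mb, peak density in the outer 5 Mb was 1.62 times as high in ERG replicate 1 and 1.72 times in ERG replicate 2. For p53 the same comparison gave 34 against 14 peaks in replicate 1 and 8 against 4 in replicate 2. Within 100 kb of the border the counts did not fall, with 15 regions over all ends just inside and 21 just outside. In steps of 1 Mb they did, from 168 regions of both ERG replicates just inside to 114 just outside.

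**Figure D1:**
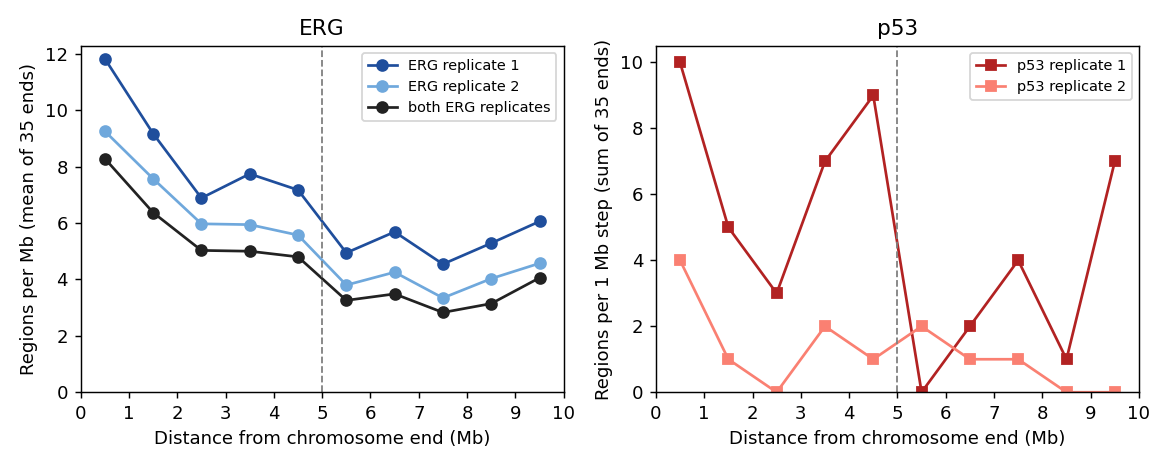
Regions with a peak of each list by distance from the chromosome end in steps of 1 Mb (x axis), as the mean number per Mb over 35 ends for ERG (left y axis) and as the sum over 35 ends for p53 (right y axis), with a dashed line at 5 Mb. Regions held by both ERG replicates decline from 8.29 per Mb in the first step to 4.80 in the last one before the line, and p53 replicate 1 has 10 regions in the first step.

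The second question was how evenly ERG was spread over the chromosome ends. The number of regions held by both ERG replicates ran from 7 to 67 per end, with a median of 24 and a middle range of 15.5 to 39.5. The 5 highest ends were 21q with 67, 8q with 66, 16p and 1p with 61 each and 9q with 56. Together these 5 ends held 30.1% of the 1032 subtelomeric regions of both ERG replicates. At 21q, 92 regions had an ERG replicate 1 peak and 76 had an ERG replicate 2 peak. At 8q the counts were 92 and 77, at 16p 95 and 68, at 1p 80 and 67, and at 9q 80 and 63. The fewest lay at 8p, with 7 of both replicates (14 and 11 by list), followed by 6p, 16q and 18p with 9 each. The replicates ranked the ends alike (Spearman's rho 0.96, Pearson's r 0.98 over 35 ends, a description, since ends share libraries and sequence).

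**Figure D2:**
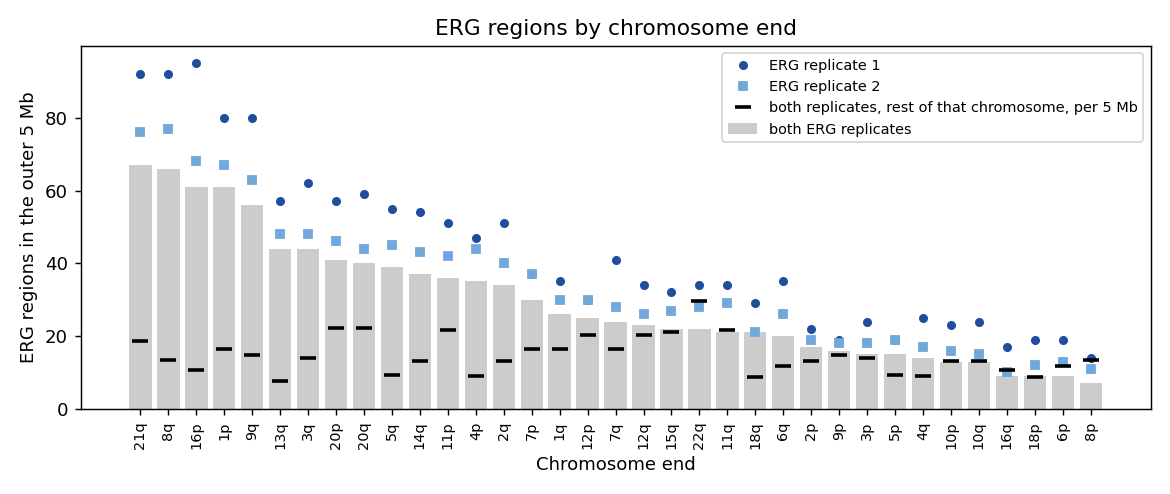
Number of ERG regions in the outer 5 Mb (y axis) at each of 35 chromosome ends (x axis), in the order of the regions held by both replicates (bars), with the counts of each ERG list (points) and the number that 5 Mb of the rest of that chromosome held on average (black dashes). Bars run from 67 at 21q to 7 at 8p, and 28 of the 35 exceed their dash.

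Most ends were denser in ERG than the rest of their own chromosome. By regions of both replicates this held for 28 of 35 ends, with a median ratio of 1.60. By single lists it held for 30 ends in ERG replicate 1 and 29 in ERG replicate 2, and for 27 ends in both. The highest ratio, 5.72, was found at 13q, where 8.80 regions per Mb stood against 1.54 in the rest of chromosome 13, and at 16p, with 12.2 against 2.13. Ratios above 4 were also seen at 8q (4.9) and 5q (4.17). The ends less dense than their chromosome in both lists were 6p, 8p and 22q. At 22q, 4.40 regions per Mb of both replicates stood against 5.92 in the rest of the chromosome, so a low ratio there went with a dense chromosome, whereas 8p had only 1.4 per Mb against 2.69.

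The arms of one chromosome could differ widely. Chromosome 8 had 66 regions of both ERG replicates at its long-arm (q) end and 7 at its p end, and chromosome 16 had 61 at its p end and 9 at its q end. Chromosome 9 had 56 at 9q and 16 at 9p, and chromosome 1 had 61 at 1p and 26 at 1q. Across the 15 chromosomes with both ends in use, however, neither arm was the fuller as a rule: the p end had more in 7, the q end in 7, and chromosome 10 had 13 at each. Within an end ERG regions were also uneven. Of the 175 windows of 1 Mb, 17 held no region of both replicates, and the fullest, from 1 to 2 Mb inside 8q, held 28. It was followed by the second Mb of 1p with 22, the first Mb of 16p with 21 and the first Mb of 11p with 20. At 13q and 21q the fullest windows lay deeper, from 3 to 4 Mb inside the end, with 18 regions each. The fullest window lay from 4 to 5 Mb at 2q (15 regions), 3p (10) and 4q (9), whereas at 16p and 11p it was the first Mb.

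Subtelomeric ERG regions recurred between replicates. Both ERG replicates held 1032 of the 1667 subtelomeric ERG regions, or 61.9% (95% interval 59.6% to 64.2%), beside 58.2% of all 16095 ERG regions of the series. In the rest of the same chromosomes the share was 57.1% (56.3% to 58.0%), and from 5 to 10 Mb it was 56.4% (53.4% to 59.4%). Counted by peak, 68.9% of the ERG replicate 1 peaks near the ends (66.5% to 71.2%) had a partner in replicate 2, against 64.5% in the rest (63.6% to 65.4%). For ERG replicate 2 the shares were 86.0% (84.0% to 87.9%) and 83.5% (82.7% to 84.3%). The share was thus a few percentage points higher near the ends in both lists. Regions are not replicates and this difference was not tested. By end, the share held by both replicates ranged from 38.9% at 8p (7 of 18, 20.3% to 61.4%) to 76.2% at 9p (16 of 21, 54.9% to 89.4%), and the intervals of these 2 ends overlap.

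Recurrence rose with peak width, and the end windows followed that pattern. Near the ends, 34.6% of ERG replicate 1 peaks under 250 bp recurred, 56.7% of those from 250 to under 350 bp, 80.8% of those from 350 to under 500 bp and 91.0% of those of 500 bp or more. In the rest of the chromosomes the shares were 33.3%, 52.7%, 77.9% and 88.6%. For ERG replicate 2 they rose from 67.6% to 98.4% near the ends and from 66.2% to 98.1% in the rest. At like width the end windows stood slightly above the rest in each of the 8 comparisons of a width class within a list, and the intervals overlapped in all but 1 of them, the 350 to under 500 bp class of replicate 2 (98.2%, 95.9% to 99.2%, against 93.7%, 92.5% to 94.7%).

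**Figure D3:**
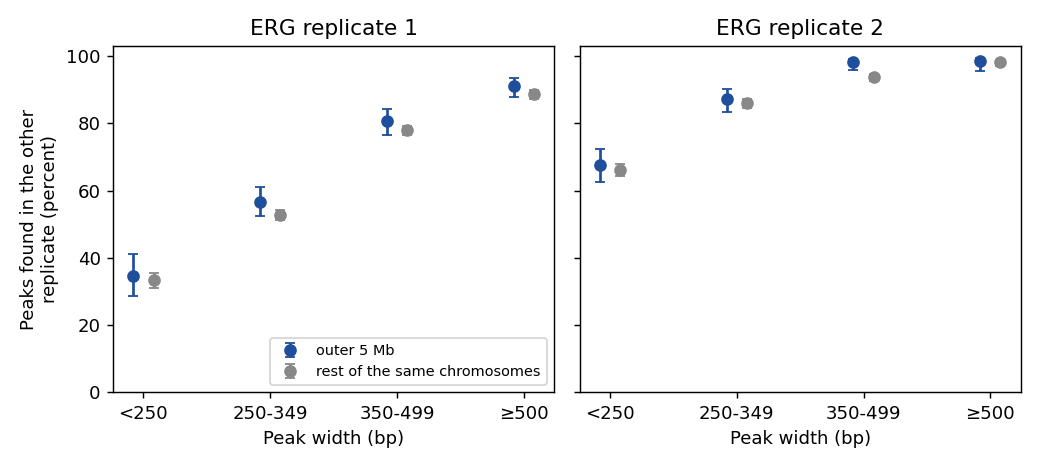
Percent of ERG peaks found again in the other replicate (y axis) by peak width in bp (x axis), in the outer 5 Mb (blue) and in the rest of the same chromosomes (grey), with 95% Wilson intervals, for ERG replicate 1 (left) and 2 (right). The share rises with width in each panel, from 34.6% to 91.0% for the blue points of replicate 1, and blue and grey points lie close together.

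Widths near the ends were much like those elsewhere. The median peak width was 364 bp near the ends and 348 bp in the rest for ERG replicate 1, and 312 bp and 304 bp for ERG replicate 2. For p53 the medians were 232 bp and 239.5 bp in replicate 1 and 246 bp and 290 bp in replicate 2. ERG peaks were thus slightly wider and p53 peaks narrower near the ends in each sample, and the mean log2 ratio over the 4 samples (-0.05) did not pass the exact sign-flip permutation test (two-sided, p = 0.75, 1 after adjustment over 3 tests, smallest possible unadjusted p 0.125). Midpoints of the replicate ERG peaks lay a median of 33.5 bp apart near the ends and 34.5 bp in the rest.

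ERG regions were more closely spaced near the ends. The nearest other region of both ERG replicates lay a median of 37.5 kb away, against 63.0 kb in the rest of the same chromosomes and 58.0 kb in the band from 5 to 10 Mb. Another such region lay within 10 kb for 189 of the 1032 (18.3%), against 14.4% in the rest, and 9.21% had none within 200 kb, against 18.8%. Density was also higher near the ends, and spacing was not tested apart from it. Regions separated by gaps of at most 10 kb formed 88 runs, and 839 regions stood alone. The longest runs held 4 regions each. One lay on 16p at chr16:730275-740613, one on 11p at chr11:554928-576877 and one on 9q at chr9:136223158-136243275. None of these 3 runs held a p53 peak.

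The 5 subtelomeric regions of both ERG replicates with the broadest peaks, in the order of their narrower replicate peak, included one at the very tip of a chromosome. This was chr5:10125-11780, where ERG replicate 1 had a peak of 1615 bp and ERG replicate 2 one of 1413 bp. Next came chr8:144815108-144816449 (1342 bp and 1337 bp), in the fullest window of 8q, and chr1:1677052-1678456 (1283 bp and 1405 bp), in the fullest window of 1p. The next was chr14:102552764-102554093 (1318 bp and 1245 bp) and the last was chr13:111364437-111366256 (1820 bp and 1210 bp). The first and last also held p53 peaks, of both p53 replicates on 5p and of p53 replicate 2 alone on 13q.

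The outermost 100 kb was then separated from the rest of the window. It held 66 regions over the 35 ends, of which 35 are the outermost regions that define the ends and are there by construction. The other 31 comprised 15 of both ERG replicates, 12 of ERG replicate 1 alone, 3 of ERG replicate 2 alone and 1 of p53 alone. These 15 amount to 4.29 regions of both ERG replicates per Mb, and from 100 to 200 kb the density was 6 per Mb. Without the end-defining regions, the outermost 100 kb was therefore not the densest stretch of the window. Of the 63 ERG regions there, 38 were held by both replicates (60.3%, 48.0% to 71.5%), close to the 62.0% of the 1604 ERG regions farther in. At 13 ends the end-defining region was the only one within 100 kb, and the most found was 4, at 1q and at 20q.

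The end-defining regions were held by both ERG replicates at 23 ends, by ERG replicate 1 alone at 10 and by p53 alone at 2. On the 15 short arms the first listed position ranged from 10125 (5p) to 692925 (6p), and it lay below 100 kb on 8 of them. The window therefore starts close to the end of the assembled sequence on some arms and far inside it on others. There were 2 pairs of short arms that began at almost the same coordinate, a feature noted after the values were seen. The first peaks of 1p and 9p started 31 bp apart, at 29004 and 29035, and those of 5p and 18p started 46 bp apart, at 10125 and 10171. Whether reads at these positions align to 1 chromosome end alone was not tested.

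On the short arms, 14 regions of the outermost 100 kb had peaks of at least 2 lists. In 12 of them the lists were those of ERG replicates 1 and 2. They lay at chr1:29004-29579 (peaks of 576 bp and 496 bp), chr2:33619-34306 (688 bp and 497 bp) and chr2:46567-47056 (490 bp and 293 bp). The next 3 lay at chr3:259570-259928 (359 bp and 205 bp), chr4:52995-53431 (277 bp and 401 bp) and chr6:692925-693314 (390 bp and 304 bp). On 7p the region was chr7:402400-402750 (299 bp and 333 bp), and 11p had 2, at chr11:207300-207745 (402 bp and 446 bp) and chr11:236475-237172 (291 bp and 698 bp). The others were chr12:74034-74770 (737 bp and 582 bp), chr20:218979-219389 (339 bp and 411 bp) and chr20:277883-279465. The last was unequal between the replicates, with 1583 bp in replicate 1 and 630 bp in replicate 2. The remaining 2 short-arm regions held p53 and are described with it.

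On the long arms all 25 regions of the outermost 100 kb with at least 2 lists had ERG peaks of both replicates and none had p53. Those of 1q were chr1:249200324-249201073 (727 bp and 539 bp) and chr1:249167574-249168351 (778 bp and 588 bp), and 3q and 6q had 1 each, at chr3:197807268-197807775 (502 bp and 310 bp) and chr6:171046603-171046874 (268 bp and 210 bp). On 7q there were 3, at chr7:158863181-158863493 (313 bp and 280 bp), chr7:158805375-158805932 (558 bp and 407 bp) and chr7:158766247-158766520 (265 bp and 220 bp). On 8q there were also 3, at chr8:146276967-146277419 (251 bp and 335 bp), chr8:146247227-146247569 (314 bp and 245 bp) and chr8:146228093-146228501 (409 bp and 265 bp). These 2 ends thus had the most regions of both ERG replicates in their last 100 kb.

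Chromosomes 9 and 10 had 2 each at their q ends, at chr9:141044519-141044892 (260 bp and 374 bp), chr9:140986429-140986811 (347 bp and 383 bp), chr10:135207541-135207941 (401 bp and 334 bp) and chr10:135122213-135122654 (309 bp and 418 bp). Single regions closed chromosome 11 at chr11:134781474-134781820 (309 bp and 273 bp), chromosome 12 at chr12:133757801-133758199 (399 bp and 351 bp), chromosome 13 at chr13:115079627-115079994 (368 bp and 280 bp) and chromosome 14 at chr14:107252161-107252471 (296 bp and 311 bp). Broader ones closed chromosome 15 at chr15:102501485-102502170 (663 bp and 652 bp) and chromosome 18 at chr18:77866944-77867490 (547 bp and 414 bp). At 20q there were 2 regions close together, chr20:62847434-62847742 (309 bp and 292 bp) and chr20:62846197-62846658 (462 bp and 364 bp). At 21q, chr21:47743821-47745231 had a peak of 1362 bp in replicate 1 and of only 227 bp in replicate 2, while chr21:47705742-47706707 had 961 bp and 712 bp. The region that closed chromosome 22 was chr22:51221744-51222208 (465 bp and 360 bp).

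**Figure D4:**
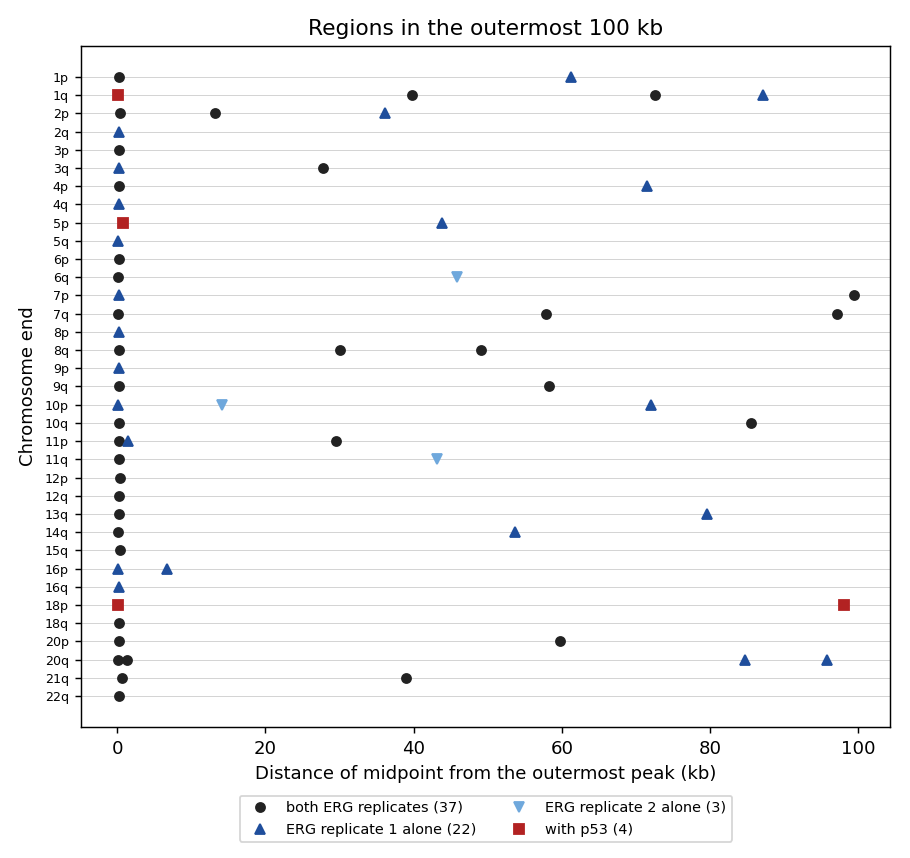
Distance in kb of each region's midpoint from the outermost listed peak (x axis) at each of 35 chromosome ends (y axis) for the 66 regions of the outermost 100 kb, marked by the lists that hold them. The 35 end-defining regions line up at the left edge by construction, and the 4 regions with p53 lie at 1q, 5p and 18p.

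The third question concerned p53. Its 40 subtelomeric regions lay at 22 of the 35 ends, with 12 at the 15 short-arm ends and 28 at the 20 long-arm ends. Of the 40, 32 came from replicate 1 alone, 6 from replicate 2 alone and 2 from both (5.00%, 1.38% to 16.5%), beside 11.0% of all 327 p53 regions of the series. In the rest of the same chromosomes 25 of 240 were held by both (10.4%, 7.16% to 14.9%), and these intervals overlap. By list, 2 of 34 replicate 1 peaks near the ends had a partner in replicate 2 and 2 of 8 replicate 2 peaks had one in replicate 1. Of the 40 p53 regions near chromosome ends, 38 were thus found in a single p53 sample.

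Both p53 regions held by both replicates lay in the outermost 100 kb, but nothing is read from that position. The first defines its end and is there by construction, and the second lay 98.1 kb inside an end that a peak of p53 replicate 1 alone defines. The first was chr5:10125-11780 at the tip of 5p, where p53 peaks of 1621 bp and 1656 bp accompanied ERG peaks of 1615 bp and 1413 bp. It was the only subtelomeric region with peaks in all 4 lists, and the 4 peaks covered nearly the same stretch. Whether reads there align to 1 chromosome end alone was not tested, and the input was not used. The second, chr18:108158-108471 on 18p, had p53 peaks of 309 bp and 198 bp and no ERG peak of either replicate. The tip of 18p, at chr18:10171-10492, had a peak of 322 bp in p53 replicate 1 alone, and so did the last listed region of 1q, chr1:249240246-249240510 (265 bp). These 4 regions, at 3 of the 35 ends, were all the p53 regions of the outermost 100 kb. Of the 4, 3 define their end, and 1 met an ERG peak.

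About as many p53 regions near the ends met an ERG peak as did not. Of the 40, 18 held an ERG peak of either replicate (45.0%, 30.7% to 60.2%) and 12 held peaks of both (30.0%, 18.1% to 45.4%). Over all p53 regions of the series the shares were 54.4% and 40.4%. Whether the p53 peak itself overlapped the peaks of both ERG replicates was not counted. In the rest of the same chromosomes 129 of 240 met an ERG peak (53.8%, 47.4% to 59.9%). The members' shares were the lower, with overlapping intervals, and no test was made over regions. Within 2 Mb of an end 5 of 18 p53 regions met ERG (27.8%). From the side of ERG, 12 of 1032 subtelomeric regions of both replicates held a p53 peak (1.16%, 0.666% to 2.02%), beside 1.41% over the series.

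The end of 13q stood apart among the ends in p53 (chosen after its values were seen). It held 6 of the 40 p53 regions, while no other end held more than 3 (6q, 9q and 20p). All 6 lay within 1.37 Mb, between positions 110436850 and 111806452, and all 6 met an ERG peak, so that 13q supplied 6 of the 18 p53 regions that met ERG. Without 13q, 12 of 34 did (35.3%). The pair closest together, chr13:110436850-110437165 and chr13:110438874-110439804, was separated by 1708 bp, with p53 replicate 1 peaks of 215 bp and 365 bp. Farther out lay chr13:111133548-111134061 with p53 replicate 1 (227 bp) and ERG replicate 2 only, and chr13:111364437-111366256 with p53 replicate 2 (350 bp). The last 2 were chr13:111566468-111568360, where p53 replicate 1 had 325 bp and ERG replicate 1 had 1893 bp, the widest subtelomeric peak of that list, and chr13:111805591-111806452, with a p53 replicate 1 peak of 262 bp. The same stretch held 26 regions of both ERG replicates. Of the 6 p53 regions, 5 came from replicate 1 and 1 from replicate 2, and none was held by both. The rest of chromosome 13 had 3 p53 regions.

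Outside 13q and 5p, 6 p53 regions met peaks of both ERG replicates. Those of p53 replicate 1 were chr2:3522584-3523032 (199 bp), chr5:176237131-176237701 (328 bp), chr9:140317386-140317900 (190 bp) and chr9:140149608-140149938 (199 bp). Those of p53 replicate 2 were chr1:244998089-244999069 (243 bp) and chr3:193852567-193853168 (249 bp). A peak of 1 ERG replicate alone was met on 6q, 8q, 13q, 21q and at 2 regions of 20p. The 21q region, chr21:42879787-42880654, had a p53 replicate 1 peak of 387 bp and an ERG replicate 1 peak of 590 bp. ERG peaks at the 18 regions had median widths of 596 bp in replicate 1 and 411.5 bp in replicate 2, against 410.5 bp and 332.5 bp for all subtelomeric regions of both ERG replicates. The sets differ in kind, since 6 of the 18 had a peak of 1 ERG replicate alone. Overlap itself depends on peak width, so nothing is read from this difference, which was not tested. The p53 peaks of replicate 1 differed less, with medians of 237 bp where ERG was met and 223 bp where it was not.

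p53 regions near the ends rarely lay close together. Of the 40, 4 had another p53 region within 100 kb (10.0%), namely the pair on 18p and the closest pair on 13q, against 76 of 240 (31.7%) in the rest of the same chromosomes. This difference was not tested, and the rest was not divided by distance from the end. Of the 22 without an ERG peak, 18 came from p53 replicate 1 alone, 3 from replicate 2 alone, on 7q, 12p and 15q, and 1 from both. By distance, 12 p53 regions lay in the first Mb, 6 in the second, 3 in the third, 9 from 3 to 4 Mb and 10 from 4 to 5 Mb, and the 6 of 13q are all in these last 2 steps. The median distance from the end was 2.46 Mb.

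**Figure D5:**
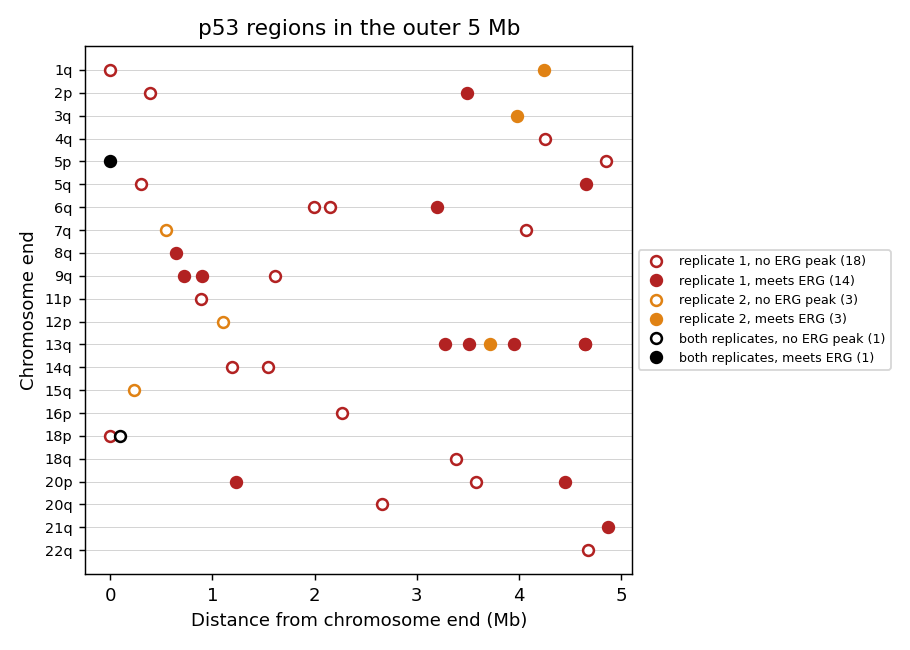
Distance in Mb from the chromosome end (x axis) of the 40 p53 regions at the 22 ends that have any (y axis), coloured by p53 replicate and filled where an ERG peak of either replicate overlaps. Filled symbols number 18, of which 6 lie on 13q between 3 and 5 Mb, and the 2 black symbols, of both replicates, lie at 5p and 18p.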

How the data were processed

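ChIP-seq of untreated VCaP cells comprised ERG (n = 2), p53 (n = 2) and an input, not used here. Per the submitters' processing notes the authors used CASAVA 1.4, Bowtie2 2.3.3.1, MACS2 and hg19, and called peaks on each sample without pooling. The study's methods name another Bowtie2 version and both builds. On 15 of 24 chromosomes listed peaks ran past the GRCh38 end, by up to 2.65 Mb, so GRCh38 sequence and annotation were not used. Deposited lists hold 4 columns (chromosome, start, end, name) and no score. The study's texts name different MACS2 thresholds, with a stricter one for p53 in its reporting form, and which of them made the deposited p53 lists was not settled. The members and lists were chosen with earlier results of these data known. A region belongs to a list when it contains its peak. Named were regions of both p53 replicates, regions of the outermost 100 kb in at least 2 lists, the 5 broadest of both ERG replicates and the fullest and emptiest ends. Shares have 95% Wilson intervals. Permutation tests ran over samples (exact). Functions were tested on simulated data. Wider or narrower windows, reciprocal overlap, wide peaks only, other chromosomes and single lists were tried as alternatives. Python 3.11.15, numpy 2.4.6, scipy 1.17.1 and matplotlib 3.10.9 were used.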

Additional observations from a re-analysis of the deposited data

Results flagged for a closer look

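The ratio of median peak width, outer 5 Mb over the rest, went one way in both ERG samples (log2 0.06 and 0.04) and the opposite way in both p53 samples (-0.05 and -0.24). The ERG mean exceeded the p53 mean by 0.19 on the log2 scale. The difference was not tested, and the p53 replicate 2 value rests on 8 peaks.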

How the results depend on the processing

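Of 63 alternatives, 9 moved and 7 changed sign. Of the other 47, 40 kept their direction or stayed within the interval of the value reported, and 7 were counts of regions in the outermost stretch, from 44 to 96 beside 66, within 1.5 times of it. Those against the band from 5 to 10 Mb, within each chromosome, without 13q and without end-defining regions were chosen after seeing the data. The density ratio stayed above 0 on the log2 scale in all 11 of its alternatives (0.51 to 1.20). The ERG minus p53 share of peaks (-0.131 percentage points) became 1.83 with a 10 Mb window and 1.62 with wide peaks only, and ranged from -5.87 without p53 replicate 2 to 5.61 without p53 replicate 1. With the replicate block, pairing same-numbered samples, it was again -0.131 (exact permutation p = 1). The mean log2 width ratio became 0.0012 with a 2 Mb window and 0.00091 with chromosomes 17, 19 and X, and ranged from -0.082 to 0.019 without single replicates. The share of ERG regions in both replicates was 55.4% under 50% reciprocal overlap and 55.9% with wide peaks, and 68.9% to 86.0% of the peaks of single lists. For p53 it was 0% without the outermost 100 kb and 5.88% to 25% of single lists. p53 regions meeting ERG made up 27.5% under 50% reciprocal overlap and 27.8% within 2 Mb, and 38.2% and 50% under the replicate block (lists numbered 1 and 2 alone). Without end-defining regions 31 remained in the outermost 100 kb. Causes were not tested, except that the last follows from its construction. The study states read totals per library, but the lists give no reads per region, and a region missing from a list is not shown to be unoccupied.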
